A study of Homo sapiens with 95 samples.

Results

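The genes described here are 59 named genes of the long arm of human chromosome 4 (4q), out of 23895 genes counted in every well. They were chosen by position and, with results of the same wells known, because their levels differed between the GFP, FAT1 or CDKN2A cells and the HcRed cells, so those contrasts are given below as a description with no test. All 59 mapped to 4q in the hg19 annotation, and 58 had a mean count above 1 over the 82 wells with 1-digit replicate numbers. The member left out by that limit was HPGD, a prostaglandin-degrading enzyme, with a mean count of 0.341, and the lowest member kept was PAQR3, with 3.89.

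Counts came from 95 wells of AALE cells, an immortalized human bronchial epithelial line, profiled by 3′ digital gene expression, in which each captured transcript end carries a molecular barcode and is counted once. The line was held as 8 populations: overexpression of NRF2, FGFR1, NRG1 or PIK3CA with an empty vector carrying the HcRed reporter as control, and Cas9 targeting of FAT1 or CDKN2A with a Cas9-EGFP plasmid lacking a guide RNA (GFP) as control. Each population was exposed to the vehicle DMSO, to 24 µg/ml cigarette smoke condensate (CSC), to 173 µM benzo[a]pyrene (BaP) or to 490 µM of the tobacco nitrosamine NNK. Most groups held 3 wells numbered with 1 digit, while 13 wells carried 2-digit numbers and were kept out of the tests. The study calls the wells of a group biological replicates, and as the sources used here do not say that they were separately established cultures, p-values measure only the spread between these wells. On the plate each chemical filled its own rows, so row and chemical cannot be told apart, and each set of 3 columns held the same pair of populations under every chemical. In a bulk well, a smaller share of cells carrying a transcript and less of it per cell cannot be told apart.

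Totals ran from 692446 to 1895735 counts per well. All 9 basal epithelial markers were counted in every well. Of the markers of other cell types, VWF, CDH5, CD3E, FOXJ1 and MUC5B were at 0 in all 95 wells. CD68 was counted in every well, at 4.14 to 37.6 CPM. LYZ was at 0 in only 2 wells, DCN in 8, PECAM1 in 20 and COL1A1 in 35, and the remaining markers in 78 to 94. The summed level of the basal markers was 901 to 1198 CPM in HcRed wells, 674 to 979 in GFP wells and 568 to 777 in FAT1 wells. It was 583 to 805 in CDKN2A wells and lowest in PIK3CA wells, at 465 to 622. The part of this in the results below was not tested. FAT1, which itself lies on 4q beyond the last member and is no member, was counted at 0, 3.51 and 2.50 CPM in the 3 FAT1 DMSO wells and at 16.4, 21.1 and 18.7 CPM in the HcRed DMSO wells. The GFP DMSO wells, which received no guide, held 7.46, 11.3 and 5.74 CPM of FAT1, below every HcRed well. In FAT1 against HcRed cells the log2 fold change of FAT1 was -3.69 ± 0.60 (SE) under DMSO, -2.24 ± 0.41 under CSC and -1.655 ± 0.45 under NNK. Against GFP cells it was -2.47 ± 0.62, -0.94 ± 0.47, -2.46 ± 0.74 and -1.31 ± 0.47 under DMSO, CSC, BaP and NNK. CDKN2A was counted at 18.2, 18.6 and 20.1 CPM in the CDKN2A wells and at 19.6, 21.7 and 21.6 CPM in HcRed wells. The GFP wells, its Cas9 control, held 38.1, 33.9 and 35.9 CPM of CDKN2A, above both. Since a cut need not remove the counted 3′ end, this gene does not check that label. The well NRG1 under NNK, replicate 2, stood apart: its log2 levels correlated with those of its group at 0.926 over 7494 genes, the lowest of the 95 wells, and the next lowest was 0.966.

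Genes that share a chromosome arm are not a pathway. They hold neighbouring places on 1 DNA molecule, and an arm is also a unit that cultured lines can gain or lose as a whole, which was not measured here. The members range from purine synthesis (PPAT, PAICS) through RNA polymerase II (POLR2B), protein export (SRP72, SPCS3) and the mitotic checkpoint (MAD2L1) to the ubiquitin system (UBE2D3, UBA6, FBXW7). In order from the centromere the first member was FIP1L1, a subunit of the mRNA polyadenylation machinery, at chr4:54243736-54330549, and the last was IRF2, an interferon-responsive transcription factor, at chr4:185306856-185395712.

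Some members are neighbours that are transcribed away from each other from a shared start region, and the stretches between their annotated starts are printed because such a pair shares position and start region while its levels can differ. They are given as the plus strand of hg19. Capitals mark GGGCGG (the core of an Sp1-type GC box) and CCAAT, searched on both strands. In the second stretch both GGGCGG matches are on the minus strand and overlap.
PPAT and PAICS, chr4:57301782-57301906: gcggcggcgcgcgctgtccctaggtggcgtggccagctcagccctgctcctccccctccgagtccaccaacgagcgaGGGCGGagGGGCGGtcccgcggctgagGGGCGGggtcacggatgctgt
UBE2D3 and CISD2, chr4:103790054-103790130: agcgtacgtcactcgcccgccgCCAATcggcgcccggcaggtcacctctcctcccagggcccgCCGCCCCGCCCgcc
The PPAT and PAICS stretch is 125 bases with 76.0% G or C and 3 GGGCGG matches, against at least 1 match in 34.5% of 35116 RefSeq (GRCh38) upstream windows of that length. The UBE2D3 and CISD2 stretch is 77 bases with 79.2% G or C, 2 GGGCGG matches and 1 CCAAT, which occur in 27.2% and 14.1% of windows of that length. A match of letters is a description and not a binding site. Another divergent pair, G3BP2 and USO1, has start regions that overlap by 13 bases.

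Across the whole set the GFP and FAT1 cells held lower levels of the 4q members than HcRed cells, and the CDKN2A cells held higher levels. The member level of a well is the mean over the 58 members of log2 CPM minus the mean of the HcRed DMSO wells. Under DMSO it was -0.04 to 0.05 in the HcRed wells, -0.44 to -0.42 in the GFP wells, -0.38 to -0.28 in the FAT1 wells and 0.18 to 0.24 in the CDKN2A wells, so none of these 3 populations overlapped HcRed. The pooled SD of this level between wells of a group was 0.0465. The PIK3CA wells, at 0.09 to 0.20, and the NRF2 wells, at 0.06 to 0.09, also lay above every HcRed well. The FGFR1 wells, at 0.01 to 0.17, and the NRG1 wells, at -0.07 to 0.04, overlapped HcRed. NRG1 shared its plate columns with GFP, FGFR1 with FAT1 and NRF2 with HcRed, and the wells within each of these pairs did not overlap. PIK3CA shared its columns with CDKN2A, and the wells of that pair overlapped. The part of plate columns in these levels was not tested.

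The GFP and FAT1 wells lay below every HcRed well under each chemical as well. Under CSC the HcRed wells lay at -0.07 to -0.01, the GFP wells at -0.46 to -0.43 and the FAT1 wells at -0.40 to -0.33. Under BaP, HcRed lay at -0.12 to -0.10, GFP at -0.56 to -0.42 and FAT1 at -0.47 to -0.43. Under NNK, HcRed lay at -0.18 to -0.14, GFP at -0.61 to -0.52 and FAT1 at -0.49 to -0.45. Taken against the HcRed mean under the same chemical, the GFP difference was -0.43, -0.40, -0.38 and -0.39 under DMSO, CSC, BaP and NNK, and the FAT1 difference was -0.34, -0.33, -0.34 and -0.31. The CDKN2A difference was 0.21, 0.11, 0.15 and 0.21, of which the values under CSC, BaP and NNK rest at least in part on wells with 2-digit numbers in 1 of the groups. Under BaP only 1 of the 3 HcRed wells carried a 1-digit number, so every BaP difference here rests in part on 2-digit wells. The PIK3CA difference was 0.16, 0.14, 0.17 and 0.15, above that of CDKN2A under CSC and BaP and below it under DMSO and NNK. GFP and FAT1 were the 2 lowest populations, and their wells overlapped under BaP but not under DMSO, CSC or NNK.

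**Figure D1:**
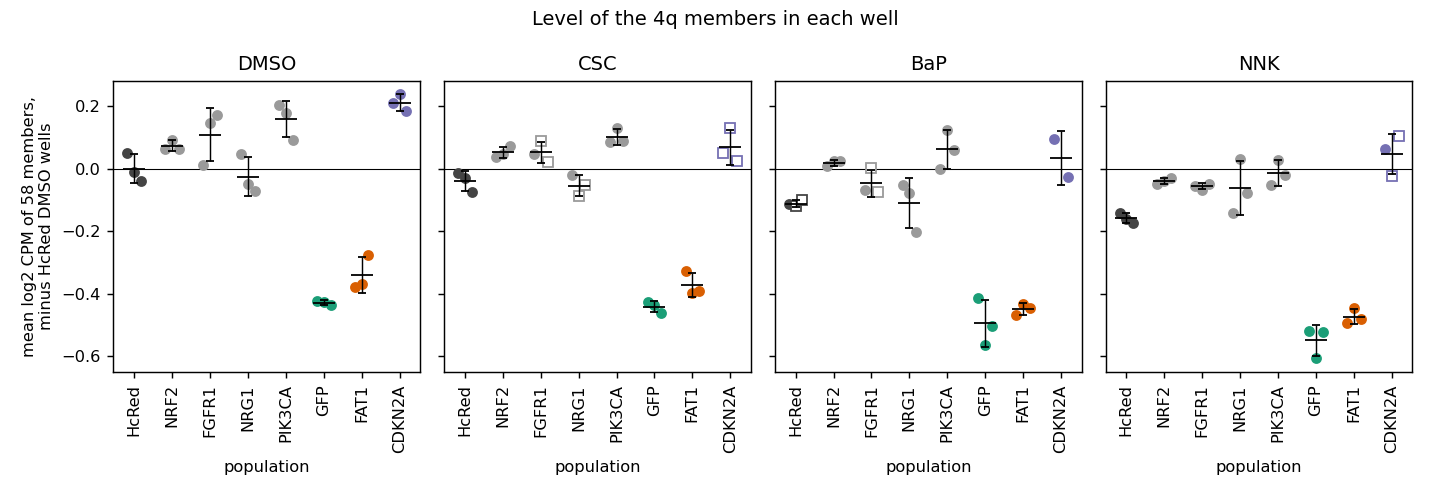
Level of the 58 members in each well (y axis, mean log2 CPM minus the HcRed DMSO wells), by population (x axis) and chemical (panel). Filled circles are wells with 1-digit numbers, open squares wells with 2-digit numbers, and bars show the mean and SD of all wells drawn; GFP wells reach from -0.61 to -0.42 and FAT1 wells from -0.49 to -0.28 over the 4 chemicals, below every HcRed well.

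Under DMSO the median log2 fold change of the members in GFP against HcRed cells was -0.48 (quartiles -0.66 and -0.25), with 53 of 58 below 0, beside 51.6% of all genes. The median of all 272 tested 4q genes was -0.42 and that of 11134 genes was -0.02. All 3 GFP wells lay below all 3 HcRed wells for 28 members, beside 13.1% of all genes. The members were chosen on this contrast, so nothing is read from the counts. The short arm went the other way, with a median of 0.28 over 127 tested 4p genes.

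In FAT1 against HcRed cells the members' median was -0.34 (quartiles -0.52 and -0.21), with 52 of 58 below 0, beside 52.5% of all genes. All 283 tested 4q genes had a median of -0.28 and 125 tested 4p genes had -0.30. All 3 FAT1 wells lay below all HcRed wells for 28 members, beside 13.9% of all genes. In CDKN2A against HcRed cells the members' median was 0.26 (quartiles 0.03 and 0.47), with 13 of 58 below 0 beside 50.1% of all genes, against 0.35 over 313 4q genes and 0.31 over 133 4p genes. For 18 members all CDKN2A wells lay above all HcRed wells, beside 13.5% of all genes. As before, these counts are a description of how the members were chosen.

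Among 41 chromosome arms with at least 20 tested genes, ordered from the lowest median, 4q was number 2 in GFP, number 6 in FAT1 and number 39 in CDKN2A cells. The short arm 4p was number 41 in GFP, number 4 in FAT1 and number 37 in CDKN2A cells. The 2 arms of chromosome 4 therefore lay at opposite ends of the order in GFP cells and near each other in FAT1 and CDKN2A cells.

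**Figure D2:**
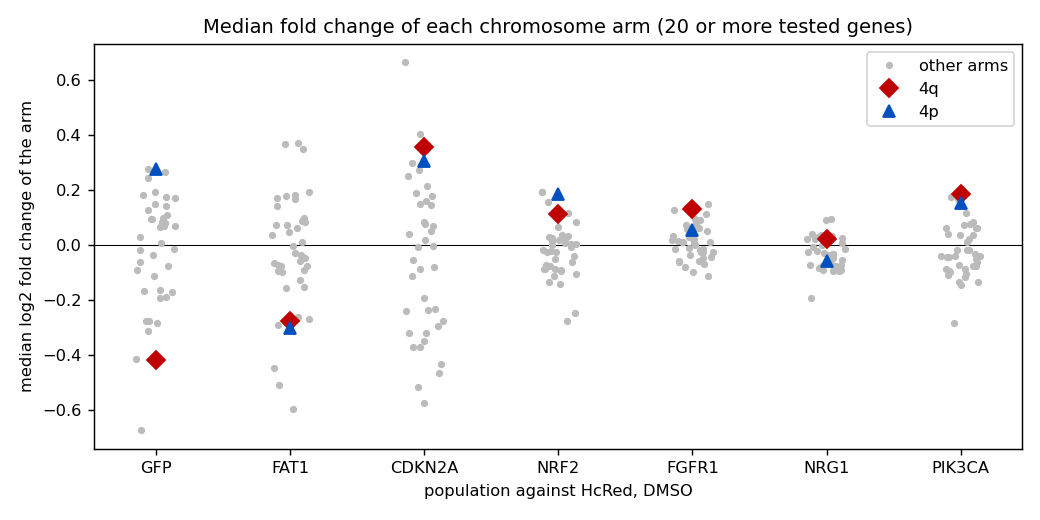
Median log2 fold change of each chromosome arm (y axis) for the 7 populations against HcRed under DMSO (x axis). Red diamonds are 4q, blue triangles 4p and grey points the other arms; 4q lies at -0.42 and 4p at 0.28 in GFP cells, at -0.28 and -0.30 in FAT1 cells, and at 0.35 and 0.31 in CDKN2A cells.

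Along the arm the GFP values were spread over its whole length. Split by gene order, the members' median was -0.50 in the 20 nearest the centromere, -0.42 in the middle 20 and -0.58 in the 18 tested members nearest the telomere. When all tested 4q genes were cut into 10 consecutive groups of 27 or 28, the medians ran from -0.60 to -0.28, and none was above 0. In CDKN2A cells the 10 medians ran from 0.24 to 0.49. The FAT1 profile was less even, with medians from -0.82 to -0.12. Its lowest group, the ninth, ran from PDGFC to CEP44 (chr4:157681606-175254531), where 25 of 28 genes were below 0 with a median of -0.82. The ninth group was also the lowest in FAT1 cells under CSC, with a median of -0.98, and under NNK, with -0.88, although the filter on low counts put slightly different genes in it. The last group, which holds the FAT1 gene, had a median of -0.44 in FAT1 cells under DMSO.

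**Figure D3:**
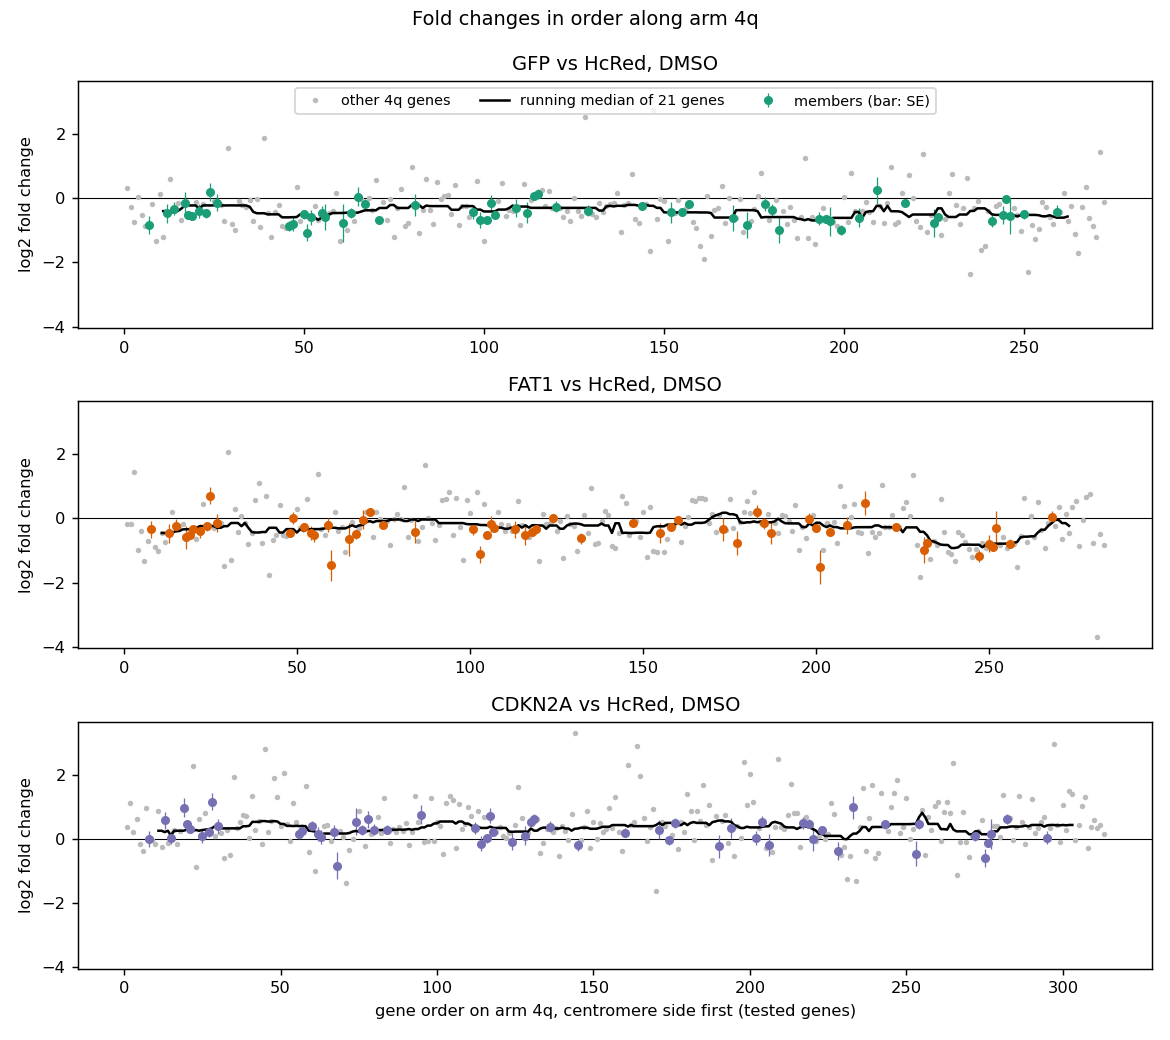
log2 fold change against HcRed under DMSO (y axis) by gene order along 4q from the centromere (x axis, tested genes), for GFP, FAT1 and CDKN2A cells. Coloured points are members with their SE, grey points the other 4q genes, and the line is the running median of 21 genes; in FAT1 cells it is lowest near the end of the arm, where the ninth group of genes had a median of -0.82.

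Members of RNA synthesis, RNA processing and transcription control, which include transcription factors such as REST and NFKB1, were low along the arm in GFP cells. All 12 were below 0 in GFP against HcRed, with a median of -0.44, 10 of 12 were below 0 in FAT1 cells (median -0.31), and 1 of 12 in CDKN2A cells (median 0.20). POLR2B, the second largest subunit of RNA polymerase II, was counted at 67.1, 61.8 and 71.6 CPM in HcRed wells, 45.6, 44.5 and 53.1 in GFP wells, 57.0, 53.8 and 59.1 in FAT1 wells and 78.4, 75.0 and 73.4 in CDKN2A wells. All GFP and FAT1 wells thus lay below the HcRed wells, and all CDKN2A wells above them, at log2 fold changes of -0.47 ± 0.14 (SE), -0.24 ± 0.14 and 0.20 ± 0.16. LSM6, part of the ring that binds U6 small nuclear RNA, was counted at 63.8, 71.3 and 73.1 CPM in HcRed, 34.8, 39.6 and 30.9 in GFP, 44.9, 57.3 and 55.8 in FAT1 and 84.3, 76.1 and 85.8 in CDKN2A wells. Its GFP value of -0.99 ± 0.16 was among the 6 lowest of the members, and its groups did not overlap HcRed in any of the 3 populations.

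PLRG1, a spliceosome component, showed a smaller GFP difference. Its wells held 143, 128 and 127 CPM in HcRed, 125, 108 and 119.8 in GFP, 104, 110.5 and 114 in FAT1 and 197, 145 and 199 in CDKN2A cells, and again no group overlapped HcRed. The log2 fold changes were -0.17 ± 0.10, -0.28 ± 0.11 and 0.46 ± 0.14. FIP1L1, the first member on the arm, was at -0.84 ± 0.29 in GFP, -0.34 ± 0.27 in FAT1 and -0.01 ± 0.25 in CDKN2A cells. Without FAT1 replicate 3 its FAT1 value was -0.06, and it was among the 6 lowest in GFP cells in 2 of 6 fits that each left out 1 well. IRF2, the last, was at -0.43 ± 0.20, 0.05 ± 0.18 and 0.03 ± 0.20. ELF2, an ETS-family transcription factor, was among the 3 highest members in FAT1 cells at 0.21 ± 0.19, and at 0.073 without FAT1 replicate 3.

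Translation and the handling of nascent protein made up the most even group. All 10 members were below 0 in GFP (median -0.58) and in FAT1 cells (median -0.39), and 0 of 10 in CDKN2A cells (median 0.43). In CDKN2A cells EIF4E was at only 0.012, and at -0.12 without CDKN2A replicate 3. The lowest mean count in this group was 24.0, for NUP54, and several other groups held members with fewer counts. The part of depth in this was not tested. SRP72, a protein of the signal recognition particle, was counted at 209, 203 and 213 CPM in HcRed, 153, 137 and 135 in GFP, 161, 174 and 159 in FAT1 and 278, 217 and 264 in CDKN2A wells. The SRP72 log2 fold changes were -0.56 ± 0.09, -0.34 ± 0.09 and 0.30 ± 0.13, with no overlap with HcRed. ABCE1, which splits ribosomes for reuse, was counted at 135, 142 and 134 CPM in HcRed, 82.9, 97.8 and 80.4 in GFP, 104, 119 and 108 in FAT1 and 217, 157 and 191 in CDKN2A wells. SPCS3, a signal peptidase subunit near the end of the arm, held 71.2, 61.8 and 74.6 CPM in HcRed, 53.9, 52.5 and 40.2 in GFP, 46.2, 37.4 and 35.8 in FAT1 and 118, 86.3 and 114 in CDKN2A wells.

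The SPCS3 log2 fold changes were -0.79 ± 0.15 in FAT1, -0.51 ± 0.15 in GFP and 0.63 ± 0.15 in CDKN2A cells. PPID, the cyclophilin that binds Hsp90, likewise had -0.77 ± 0.13 in FAT1, -0.59 ± 0.13 in GFP and 0.46 ± 0.14 in CDKN2A cells, from 96.5, 103 and 81.3 CPM in the HcRed wells. NUP54, a nuclear pore protein, had the lowest GFP value of the 58 members, at -1.08 ± 0.26, and G3BP2, a stress granule protein, had -0.87 ± 0.15. Reads in overlapping 3′ ends were not resolved here, since the strand setting of the counting is not given in the sources used here: ABCE1 and OTUD4 overlap by 18687 bases, PPID and ETFDH by 1616, and POLR2B and IGFBP7 by 386.

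**Figure D4:**
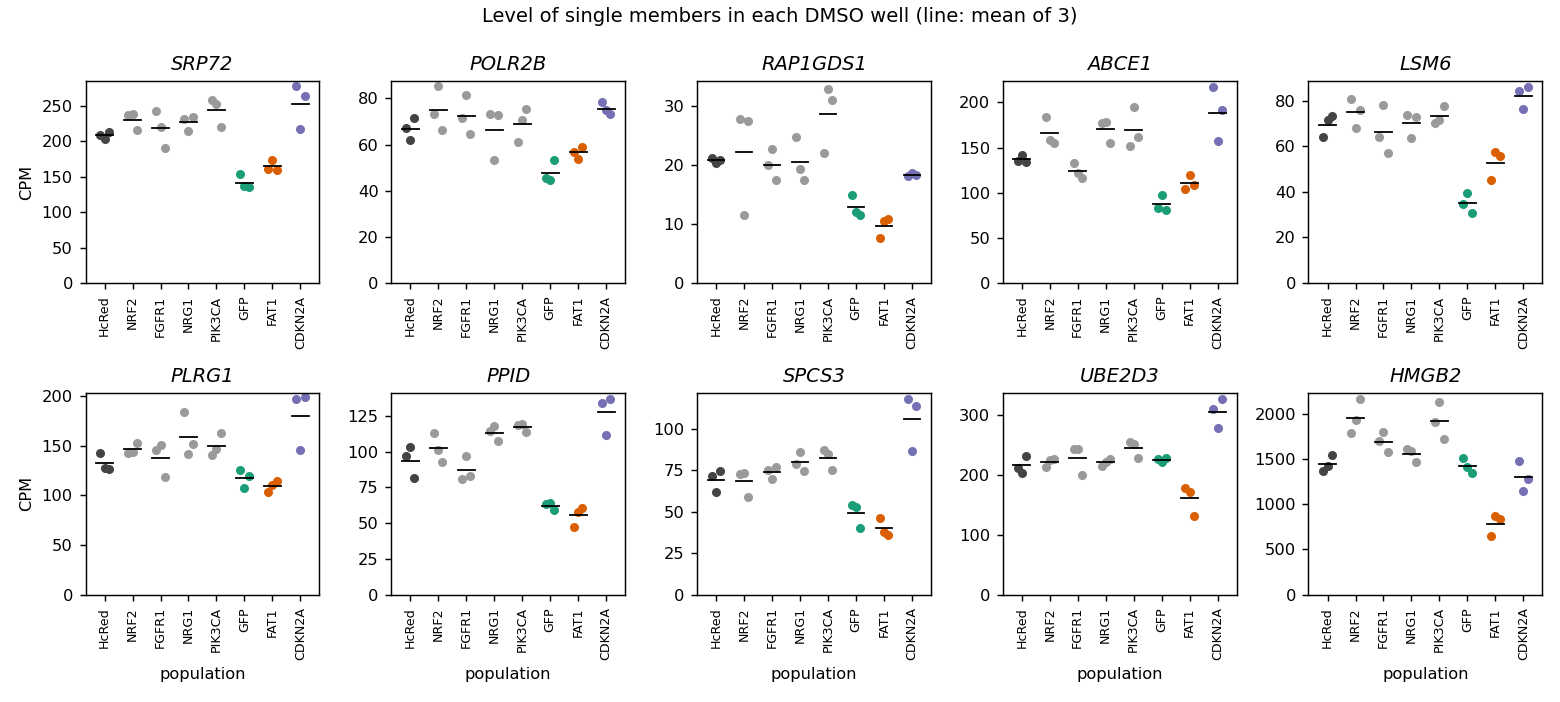
Level of 10 members in CPM (y axis) in each DMSO well by population (x axis); the line is the mean of 3 wells. The first 8 are the members whose GFP, FAT1 and CDKN2A wells all lie beyond every HcRed well, while UBE2D3 and HMGB2 lie at the HcRed level in GFP cells, with log2 fold changes of 0.07 and -0.03, and lower in FAT1 cells, with -0.42 and -0.90.

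Of the first divergent pair, PAICS, which carries out later steps of purine synthesis, held 231, 209 and 254 CPM in HcRed, 159, 154 and 164 in GFP, 139, 175 and 169.8 in FAT1 and 371, 249 and 335 in CDKN2A wells, with log2 fold changes of -0.53 ± 0.09, -0.53 ± 0.10 and 0.47 ± 0.13. Its partner PPAT, which starts the same pathway, was counted at only 7.36 to 8.96 CPM in HcRed wells and had -0.15 ± 0.35, -0.59 ± 0.36 and 0.97 ± 0.30. Its GFP value was 0.15 without GFP replicate 3, and the difference between PPAT and PAICS was not tested. UBE2D3, a ubiquitin-conjugating enzyme, held 213, 204 and 233 CPM in HcRed and 227, 221 and 229 in GFP wells, which overlapped, at 0.07 ± 0.08. The FAT1 wells, at 179, 171 and 132 CPM, lay below HcRed (-0.42 ± 0.10) and the CDKN2A wells, at 310.2, 279 and 328 CPM, above it (0.52 ± 0.13).

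CISD2, the iron-sulfur protein encoded on the other side of the same start region, followed UBE2D3 in all 3 populations, at 0.12 ± 0.14, -0.32 ± 0.15 and 0.61 ± 0.16. The members on either side of this pair, NFKB1 and PPA2, were at -0.46 ± 0.33 and -0.27 ± 0.16 in GFP cells. UBE2D3 and CISD2 were thus 2 of the 5 members at or above 0 in GFP cells, with IGFBP7 (0.19 ± 0.29), FBXW7 (0.23 ± 0.41) and ENOPH1 (0.04 ± 0.29). Leaving out single wells kept UBE2D3 at 0.04 to 0.12 and CISD2 at 0.05 to 0.21, whereas without HcRed replicate 3 IGFBP7 was at -0.03 and FBXW7 at -0.18.

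The 4 chromatin members were all below 0 in GFP and FAT1 cells, and 2 of 4 in CDKN2A cells. HMGB2, a high-mobility group DNA-binding protein with the highest counts of all members, held 1369, 1415 and 1545 CPM in HcRed, 1512, 1410.5 and 1338 in GFP and 1473, 1149 and 1282 in CDKN2A wells, all overlapping. The FAT1 wells held 649, 865 and 831 CPM, below every well of the others, at -0.90 ± 0.07. SETD7, a lysine methyltransferase, was among the 6 lowest in GFP cells at -0.99 ± 0.40, with a level of 8.15 to 10.6 CPM in HcRed wells. The 4 cell cycle members were all below 0 in GFP and FAT1 cells, and 3 of 4 were below 0 in CDKN2A cells as well. The lowest member of the CDKN2A cells was CCNG2, an atypical cyclin, at -0.84 ± 0.42, from 1.61, 6.77 and 5.32 CPM beside 5.73, 8.83 and 6.72 in HcRed wells, which overlapped. It was at -0.19 without CDKN2A replicate 1 and at -1.24 without replicate 2, and among the 6 lowest in each of 6 fits with 1 well left out. PLK4, the centriole duplication kinase, was at -0.23 ± 0.35 there and at -0.08 without CDKN2A replicate 3.

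Of the 5 signalling and adhesion members 4 were below 0 in GFP and in FAT1 cells, of the 10 vesicle and membrane members 9 and 8, of the 7 tested metabolic members 6 and 7, and of the 6 ubiquitin system members 4 and 5. RAP1GDS1, an exchange factor for small GTPases, was the member whose wells lay below HcRed in all 3 populations: it held 21.3, 20.4 and 20.9 CPM in HcRed, 14.9, 12.1 and 11.5 in GFP, 7.60, 10.5 and 10.8 in FAT1 and 18.2, 18.6 and 18.3 in CDKN2A wells. Its log2 fold changes were -0.70 ± 0.25, -1.12 ± 0.26 and -0.16 ± 0.23. IGFBP7, a secreted binding protein for insulin-like growth factors, was the highest member in FAT1 and CDKN2A cells, at 0.71 ± 0.27 and 1.15 ± 0.26, with 13.1, 12.9 and 8.21 CPM in HcRed, 15.2, 19.3 and 22.5 in FAT1 and 24.7, 27.1 and 23.1 in CDKN2A wells. FBXW7, the substrate receptor of an SCF ubiquitin ligase, was the second highest in both, at 0.48 ± 0.38 and 0.99 ± 0.36, and at 0.072 and 0.57 without HcRed replicate 3.

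Toward the end of the arm CLCN3, an endosomal chloride transporter, held 36.0, 47.5 and 50.0 CPM in HcRed, 24.0, 28.3 and 28.7 in GFP, 19.6, 18.1 and 21.6 in FAT1 and 51.5, 42.3 and 46.7 in CDKN2A wells. Its FAT1 value of -1.17 ± 0.19 was among the 6 lowest, together with OTUD4 (-1.51 ± 0.53), CCNG2 (-1.46 ± 0.48), RAP1GDS1, ETFDH (-0.99 ± 0.41) and HMGB2. PGRMC2, a membrane-bound haem-binding protein, completed the 6 lowest in GFP cells at -0.84 ± 0.41. Without GFP replicate 3 it was at -0.27, and it was among the 6 lowest in 3 of 6 fits with 1 well left out. Beside CCNG2 and PLK4, the 6 lowest in CDKN2A cells were GALNT7 (-0.60 ± 0.28), ETFDH (-0.46 ± 0.37), LRBA (-0.37 ± 0.28) and HADH (-0.20 ± 0.17). Without CDKN2A replicate 1 ETFDH was at -0.15 and LRBA at -0.12, and without HcRed replicate 1 HADH was at -0.13. PLK4 and HADH were each among the 6 lowest in CDKN2A cells in 3 of 6 fits with 1 well left out. SETD7, at -0.20 with all wells, was among them in 4 of 6.

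**Figure D5:**
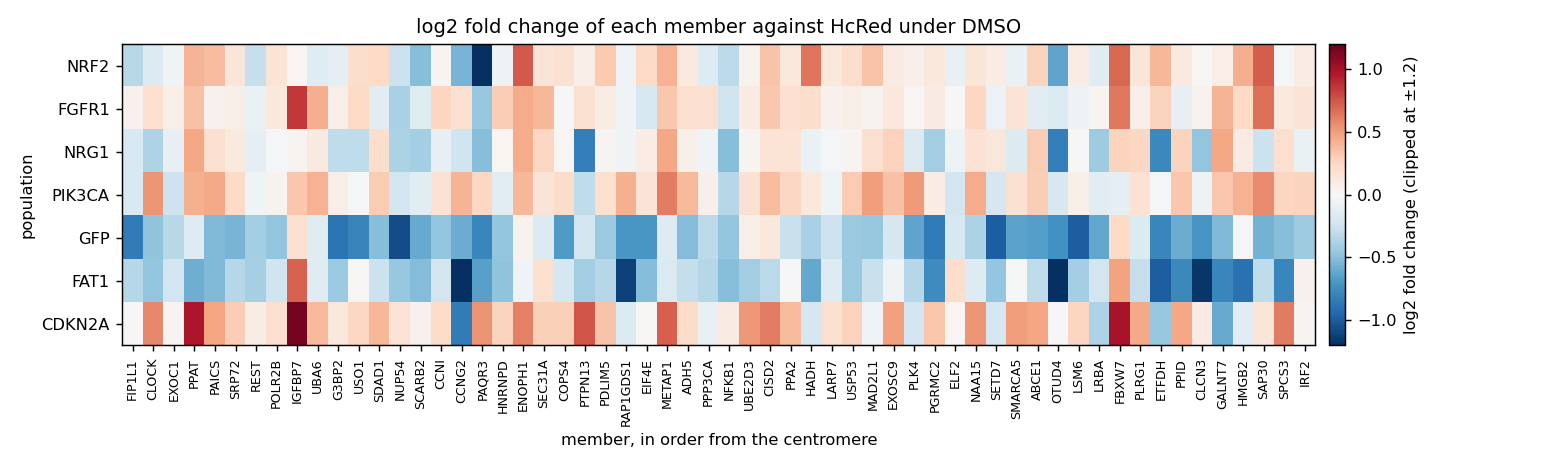
log2 fold change of each of 58 members (x axis, in order from the centromere) in the 7 other populations against HcRed under DMSO (y axis), on a colour scale clipped at ±1.2. Blue is lower and red higher than HcRed; the GFP and FAT1 rows are mostly blue, with 53 and 52 members below 0, and the CDKN2A row is mostly red, with 13 below 0.

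Against the GFP cells, their own Cas9 control, the 2 targeted populations took different places; these contrasts are made of the same wells and are likewise given as a description. In CDKN2A against GFP cells under DMSO the members' median was 0.73 (4q 0.75, 4p 0.08, all genes 0.03), and all CDKN2A wells lay above all GFP wells for 41 of 58 members, beside 16.3% of all genes. In FAT1 against GFP cells the median was 0.09 (4q 0.16, 4p -0.58, all genes -0.01), with FAT1 wells above GFP wells for 17 members and below for 5, beside 15.5% and 13.7% of all genes. Under CSC, BaP and NNK the medians were 0.11, 0.08 and 0.14, beside 0.02, 0.06 and -0.01 over all genes. These small medians moved with single wells, to 0.015 without FAT1 CSC replicate 1 and to 0.011 without FAT1 BaP replicate 1. With library size as the scaling they were 0.0085 under CSC and 0.016 under BaP, beside -0.069 and -0.0030 over all genes.

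A few members, chosen after their values were seen, lay well away from these medians. HMGB2 had log2 fold changes of -0.89, -0.89, -0.90 and -0.83 in FAT1 against GFP cells under DMSO, CSC, BaP and NNK, and UBE2D3 had -0.50, -0.40, -0.29 and -0.38. COPS4, a subunit of the COP9 signalosome, had 0.45, 0.41, 0.40 and 0.35. USO1, a tether between the endoplasmic reticulum and the Golgi, held 18.2, 16.2 and 17.2 CPM in GFP wells and 36.1, 28.6 and 27.5 in FAT1 wells, and the latter overlapped HcRed at 36.0, 29.9 and 26.1.

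Under CSC and NNK the contrasts against HcRed had similar medians, of -0.51 and -0.48 in GFP and -0.35 and -0.37 in FAT1 cells. They are made of other wells than the DMSO contrasts, and were likewise known when the members were chosen.

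The overexpression populations were tested against HcRed under DMSO, in contrasts that share the 3 HcRed wells with each other and with those the members were chosen on. In NRF2 cells, which overexpress the regulator of the antioxidant response, 4 of 58 members were called higher and 0 lower, beside 3.39% and 1.52% of all genes. The members' median was 0.10. HMGB2 rose to 1783, 1927 and 2155 CPM (log2 fold change 0.44 ± 0.04, limma adjusted p = 3.53e-13), and HADH, an enzyme of fatty acid oxidation, to 76.5, 76.7 and 75.1 CPM from 54.8, 46.2 and 45.5 (0.65 ± 0.14, adjusted p = 0.000624). PAICS (0.37 ± 0.08, limma adjusted p = 0.000755) and the spindle checkpoint gene MAD2L1 (0.35 ± 0.08, limma adjusted p = 0.00209) were the others, and all 4 had every NRF2 well above every HcRed well. In a single fit over all groups, PAICS and MAD2L1 missed the threshold (limma adjusted p = 0.0804 and 0.142, the highest of 14 alternatives, whose lowest were 8.01e-05 and 0.000543).

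In PIK3CA cells, which overexpress the catalytic subunit of PI3-kinase, 5 of 58 members were called higher and 0 lower, beside 3.36% and 2.05% of all genes. The members' median was 0.19. MAD2L1 held 292.6, 288 and 299 CPM beside 217, 196 and 207 in HcRed wells (0.51 ± 0.08, limma adjusted p = 2.50e-06). PAICS rose by 0.45 ± 0.08 (limma adjusted p = 4.40e-05), HMGB2 by 0.41 ± 0.05 (2.32e-10) and ADH5, which clears formaldehyde, by 0.39 ± 0.07 (8.41e-05). The exosome subunit EXOSC9 had 0.35 ± 0.11 (limma adjusted p = 0.0443), a call lost without any of 4 wells (HcRed replicate 1 or 2, PIK3CA replicate 1 or 2). It was also lost with DESeq2, library size as the scaling, no filter and the single fit (adjusted p = 0.119, 0.114, 0.0739 and 0.16, in a range of 0.0313 to 0.218 over all alternatives). Of 41 arms, 4q had the highest median in PIK3CA cells, at 0.19.

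In NRG1 cells, which overexpress a ligand of ERBB receptors, 1 of 58 members was called, beside 2.08% of all genes higher: ABCE1 at 0.31 ± 0.09 (limma adjusted p = 0.0427). That call was lost without any of 5 wells (any HcRed replicate, NRG1 replicate 1 or 2) and with DESeq2, library size as the scaling, no filter and the single fit (adjusted p = 0.0523, 0.187, 0.0592 and 0.306), and its adjusted p over all alternatives ran from 0.0205 to 0.306. In FGFR1 cells, which overexpress a receptor for fibroblast growth factors, 0 of 59 members were called by limma, edgeR or DESeq2. By limma 0.501% of all genes were called higher and 0.413% lower. The members' median was 0.01 in NRG1 cells. In FGFR1 cells it was 0.10, with 14 of 59 below 0, beside 49.1% of all genes. An unadjusted limma p below 0.05 was found for 4 members, beside 1011 of all 11379 genes. Without FGFR1 replicate 3 the count was 3, all higher, beside 1.96% of all genes higher.

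The chemicals were compared with DMSO across populations, with population as a term in the fit. These fits share the GFP and FAT1 DMSO wells with the contrasts the members were chosen on. For CSC and NNK they share the HcRed DMSO wells as well. Results of these wells were known when the members were chosen, and the p-values do not allow for that choice. For CSC 5 populations (HcRed, GFP, FAT1, NRF2 and PIK3CA) and 30 wells entered. There 1 of 58 members was called lower and 1 higher, beside 2.86% and 2.95% of all genes. HMGB2 fell by 0.45 ± 0.03 on the log2 scale (limma adjusted p = 2.94e-18), from 649, 1512 and 2155 CPM (lowest, median and highest DMSO well) to 517, 1184 and 1540 CPM, and its mean was lower in 5 of 5 populations. SPCS3 rose by 0.21 ± 0.06 (limma adjusted p = 0.0231), in 4 of 5 populations, a call that was lost without PIK3CA, GFP or NRF2 DMSO replicate 3 (limma adjusted p = 0.0516, 0.0559 and 0.0599, in a range of 0.0077 to 0.0831 over all alternatives). With the 2-digit wells added, 4 members were called lower and 3 higher, beside 4.54% and 5.34% of all genes.

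For BaP a different set of 5 populations (GFP, FAT1, NRF2, NRG1 and PIK3CA, without HcRed) and 30 wells entered. There 7 of 58 members were called lower and 0 higher, beside 4.12% and 5.04% of all genes. The members' median was -0.08, beside 0.009 over all genes. The 224 tested 4q genes that are not members had a median of -0.007, with 4.02% called lower and 4.91% higher. REST, the repressor of neuronal genes, held 14.4, 21.7 and 28.4 CPM (lowest, median and highest) in DMSO wells and 9.52, 15.3 and 23.1 CPM in BaP wells, and fell by 0.40 ± 0.11 on the log2 scale (limma adjusted p = 0.011). NAA15, a subunit of an N-terminal acetyltransferase, fell by 0.34 ± 0.08 (limma adjusted p = 0.00192), USO1 by 0.33 ± 0.09 (0.0132), the RNA-binding protein HNRNPD by 0.26 ± 0.08 (0.0158) and HMGB2 by 0.17 ± 0.03 (6.53e-05). The means of these 5 were lower under BaP in 5 of 5 populations. The remaining 2 calls, PPID and MAD2L1, lay outside the rule for named genes and were added after their values were seen. With the 2-digit wells added, 10 members were called lower and 1 higher, beside 7.54% and 7.02% of all genes.

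For NNK every population but CDKN2A entered, with 7 populations and 42 wells. There 9 of 58 members were called lower and 0 higher, beside 4.15% and 3.07% of all genes. The members' median was -0.13, and -0.05 in the 40 with a mean count above 20, beside -0.009 over all genes. The 227 tested 4q genes that are not members had a median of -0.04, with 4.85% called lower and 2.64% higher. IGFBP7 held 8.21, 13.7 and 26.3 CPM in DMSO wells and 5.37, 8.56 and 16.5 CPM in NNK wells, ranges that overlapped, and fell by 0.59 ± 0.13 on the log2 scale (limma adjusted p = 0.000932), with a lower mean in 6 of 7 populations. RAP1GDS1 fell by 0.48 ± 0.11 (limma adjusted p = 0.00183) in 7 of 7 populations, the circadian transcription factor CLOCK by 0.47 ± 0.14 (0.0253) in 6 of 7, the chromatin remodelling ATPase SMARCA5 by 0.37 ± 0.10 (0.0117) in 6 of 7 and USO1 by 0.37 ± 0.09 (0.00568) in 6 of 7. DESeq2 gave adjusted p-values of 0.0782 for CLOCK and 0.0926 for SMARCA5, and over all alternatives they ran from 0.00017 to 0.0796 and from 1.84e-06 to 0.0926. The CLOCK call was also lost without any 1 of 7 wells, namely replicate 1 of PIK3CA DMSO, PIK3CA NNK or NRG1 NNK, or replicate 2 of HcRed DMSO, FAT1 DMSO, PIK3CA NNK or FGFR1 NNK. Outside the rule for named genes, and added after their values were seen, the other 4 were NAA15, HNRNPD, G3BP2 and HMGB2. Without NRG1 NNK replicate 2, the well that stood apart, 17 members were called, 12 lower and 5 higher, including all 9. In that fit 19.9% of all genes were called in either direction and 9.74% were called lower.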

How the data were processed

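Expression was measured by 3′ digital gene expression in 95 wells. The authors aligned reads with BWA (version 0.7.10) to the hg19 RefSeq transcriptome and counted molecular barcodes, and the deposited values are raw counts per gene and well, summing to between 692446 and 1895735. Positions came from the GENCODE annotation lifted to hg19 (22288 of 23895 genes, 1480 through an older symbol). Genes with a mean count above 1 in the compared wells were fitted with limma (version 3.58.1 in R 4.3.3), with voom weights and TMM factors from edgeR (version 4.0.16), and p-values were adjusted by Benjamini-Hochberg over all of them, with a threshold of 0.05. Fits used the 82 wells with 1-digit numbers. For levels, log2 CPM used a prior count of 2.

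The members, roles and lists were chosen with earlier results of these data known. The text names, for GFP, FAT1 and CDKN2A against HcRed, the 6 lowest and 3 highest members with a mean count above 5 and those whose wells lay beyond every HcRed well in all 3 populations, and for tested contrasts at most 5 called members in each direction. FAT1 and CDKN2A against GFP had been planned as tests and are given as a description, because the members were chosen on the same wells. Interaction tests of the HcRed contrasts are not reported, for the same reason. Alternatives were DESeq2 (version 1.42.0), edgeR's quasi-likelihood test, other scalings and filters, a replicate block, a single fit over all groups, the 13 further wells, every 4q gene, and leaving out each well. In simulated counts with 200 genes changed 2-fold, limma called 53.5% in the NRF2 contrast (11217 genes) and 93.5% in the BaP contrast (11306 genes). The changed genes had mean counts above 5, and the simulated populations did not differ otherwise. Members called in these contrasts changed by less than 2-fold, so these shares do not give the power for them.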

Additional observations from a re-analysis of the deposited data

Results flagged for a closer look

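The wells with 2-digit replicate numbers entered no test, and in 4 of their groups the member level lay above every HcRed well under the same chemical. In CDKN2A cells under CSC it averaged 0.0684 over 3 wells (0.02 to 0.13), where HcRed wells lay at -0.07 to -0.01. In CDKN2A cells under NNK it averaged 0.0396 over 2 wells (-0.02 to 0.10), beside -0.18 to -0.14. In FGFR1 cells it averaged -0.0363 over 2 wells under BaP (-0.08 to 0.00), beside -0.12 to -0.10, and 0.0549 over 2 wells under CSC (0.02 to 0.09). The differences were not tested. No group held 4 or more wells, so single wells were not screened within groups.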

How the results depend on the processing

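No median of a described contrast and no named call of a tested contrast reversed direction. Tested contrasts were otherwise scored by their count of calls, which carries no direction. Without HcRed replicate 1 the NRG1 fit called 0 members higher and 1 lower. A median was scored as moved if it changed by at least 0.0465, the pooled SD of the member level between wells. Small changes in a count of calls were not scored as moved either. With edgeR, median-ratio scaling and a mean count above 5, no such median or count was scored as moved. With every 4q gene in place of the members the medians were -0.42 for GFP, -0.28 for FAT1 and 0.35 for CDKN2A against HcRed under DMSO, and 0.16 for FAT1 against GFP. Scaling by library size alone gave -0.53 for GFP, 0.32 for CDKN2A, and -0.47, -0.43 and -0.51 for FAT1 against HcRed under DMSO, CSC and NNK. It also gave 0.82 for CDKN2A against GFP, 0.037, 0.0085, 0.016 and 0.019 for FAT1 against GFP under DMSO, CSC, BaP and NNK, and calls of 1 member for FGFR1 and 0 for NRG1. This scaling moved the median of all genes by -0.12 for FAT1 under DMSO and -0.13 under NNK. The members' median minus that of all genes changed little between TMM and library size under DMSO. It was -0.459 and -0.457 for GFP, -0.308 and -0.313 for FAT1 against HcRed, and 0.102 and 0.105 for FAT1 against GFP. The single fit called 2 members for NRF2, 0 for NRG1 and 1 for CSC, DESeq2 and no filter each called 0 for NRG1, and the 2-digit wells, with more of all genes called as well, raised CSC to 7 and BaP to 11. The cause of these moves was not tested. Replicate numbers did not pair the wells (correlations of same-numbered deviations -0.08 to 0.08). With the replicate block no result was scored as moved (GFP -0.48, FAT1 -0.35, CDKN2A 0.27). Leaving out single wells gave, against HcRed under DMSO, medians of -0.52 to -0.46 for GFP, -0.37 to -0.33 for FAT1 and 0.21 to 0.28 for CDKN2A. Under CSC and NNK it gave -0.52 to -0.45 and -0.54 to -0.46 for GFP, and -0.38 to -0.32 and -0.41 to -0.31 for FAT1. Against GFP it gave 0.68 to 0.76 for CDKN2A, and 0.071 to 0.19, 0.015 to 0.13, 0.011 to 0.071 and 0.089 to 0.16 for FAT1 under DMSO, CSC, BaP and NNK. Calls ranged from 4 to 5 for NRF2, 0 to 3 for FGFR1, 0 to 1 for NRG1, 4 to 6 for PIK3CA, 1 to 3 for CSC, 5 to 8 for BaP and 8 to 17 for NNK. The share of all genes called higher ranged as well, from 2.55% to 3.15% for NRF2 and 0.23% to 1.96% for FGFR1. For NRG1 it ran from 1.28% to 1.93% and for PIK3CA from 2.3% to 3.1%. For the chemicals such shares are given only for the NNK fit named above. Depth limits members with few counts: PPAT, OTUD4 and CCNG2 have SEs of 0.30 to 0.53.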
